A study of Rattus norvegicus with 24 samples.

Results

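Brain microvessels (BMVs) were compared with full brain tissue (BT) on 12 of the 24 arrays of the series, 6 of each group, which were chosen by their labels alone. All genes with a transcript cluster of a single symbol entered, which gave 18166 genes from 36685 clusters. The animals were male Wistar rats aged 12 weeks with no further treatment, killed under deep anesthesia with CO2, and the meninges, the vessels of the brain surface, the choroid plexus and the white matter had been dissected away from the frozen hemispheres. Of each hemisphere 2 to 3 cryosections gave BT, and the remaining sections were homogenized, passed through a dextran gradient and caught on a nylon mesh of 60 µm to give BMVs. BMVs are thus pieces of vessel of every kind that this mesh retains, with whatever adheres to them, and not a sorted cell type. From every sample with an RNA integrity number above 8.0, 1 ng of RNA was amplified and hybridized to its own Affymetrix Rat Gene 2.0 ST array. Retinal microvessels (RMVs) and retinal tissue (RT) of the same rats filled the other 12 arrays and are used here only where the enrichment in the brain was tested against that in the retina.

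The wall of a brain capillary is a tube of endothelial cells that are sealed by tight junctions and carry nutrient transporters and drug efflux pumps, and pericytes share its basement membrane. Arterioles add a layer of smooth muscle, and larger vessels that dive in from the surface bring along fibroblasts and macrophages in the space around them. Astrocyte endfeet wrap this wall from outside, and nerve endings reach it. In such bulk samples fewer cells of a type and less RNA per cell cannot be told apart.

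Signals are given on the log2 scale of the deposited values, and a difference of 1 is 2-fold. The median signal over all clusters was 6.49 to 6.55 on BMV arrays and 5.81 to 5.95 on BT arrays, and no array stood apart from its group: correlations between arrays were at least 0.991 within BMVs and 0.992 within BT, and at most 0.884 between them. The first principal component of these 12 arrays held 91.6% of the variance and separated the groups without overlap. A gene counted as higher or lower when it differed by at least 1 with an adjusted p under 0.05 (limma, Benjamini-Hochberg over all 18166 genes, two-sided). The log2 fold change of all genes had a median of 0.30, and of -0.15 after quantile normalization, so that list medians are set against it and counts after quantile normalization are given where they differ by over 1.5 times. The labels call the samples biological replicates.

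To judge absolute level, each array was given a background: the 95th percentile of its 1344 olfactory and vomeronasal receptor genes, whose known place of use is the sensory epithelium of the nose. It was 6.18 to 6.31 on BMV and 5.71 to 5.83 on BT arrays. A gene was called above background in a group when it exceeded this level on all 6 arrays and within background when it did so on none. By this measure 10720 genes (59.0%) were above background in both groups and 4397 (24.2%) within it in both. Signals of different clusters depend on their probes, so that levels are read gene by gene and not ranked. For a gene within background in 1 group the log2 fold change is a difference of measured signals, and the fold is given as a lower bound. For this bound the dim group was taken on each array at the higher of its signal and the background. The bound does not correct for the higher background of BMV arrays, and it says little where the brighter signal lies near background.

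BMVs were a vascular preparation with a thinned neural remainder. BMVs exceeded BT by the thresholds for 2969 genes (16.3%) and fell short of it for 1903 (10.5%), and for 1800 (9.91%) and 2444 (13.5%) after quantile normalization. Of the higher genes, 1883 were above background in both groups and 701 were within background in BT. Of these 701, 239 were above background in BMVs and 305 were within it there as well. Of the lower genes, 1501 were above background in both groups, so that most of these transcripts remained measurable in the BMV samples. Only 199 were within background in BMVs, 7 of them in BT as well. The 292 measured genes of the vascular lists had 212 higher and 19 lower (72.6% and 6.51%), with a median of 2.11, whereas the 319 genes of the neural lists had 10 higher and 241 lower (3.13% and 75.5%), with a median of -2.01.

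**Figure D1:**
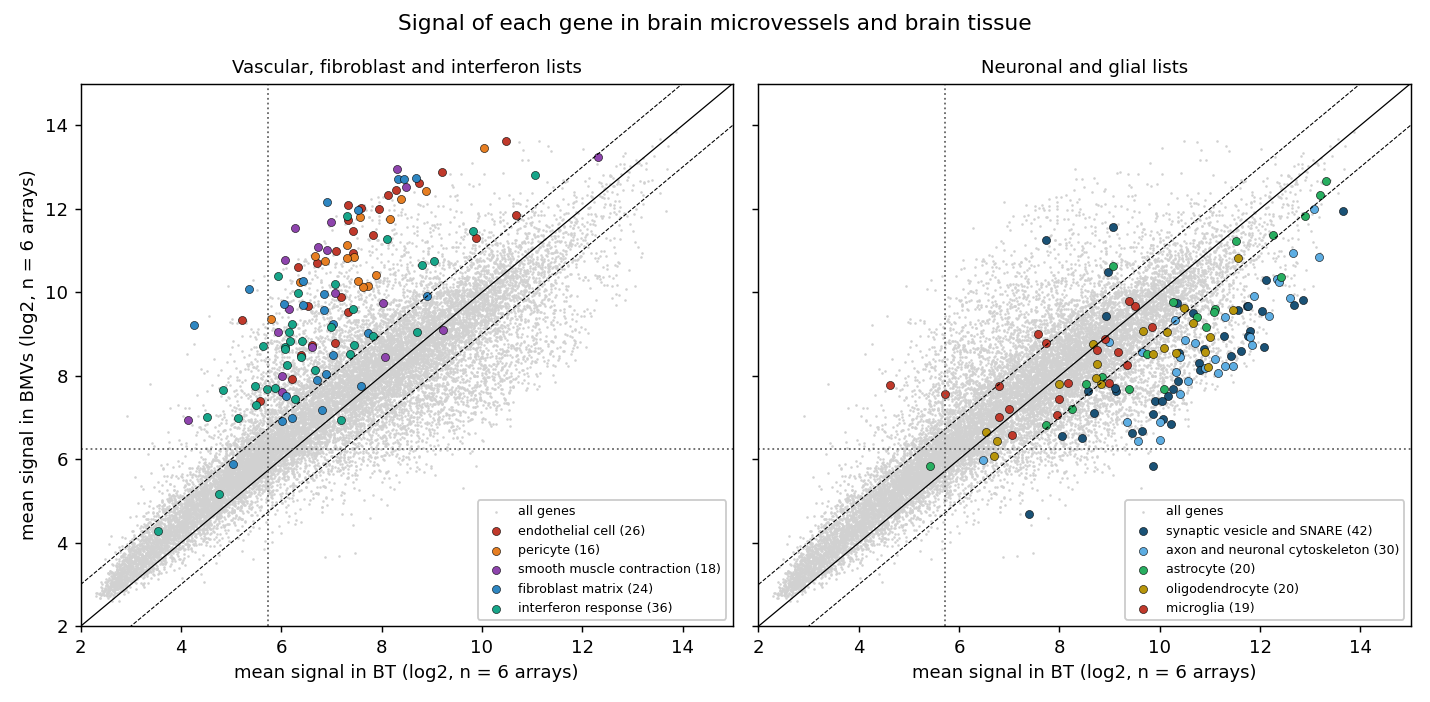
Mean signal of each of 18166 genes in BT (horizontal) and BMVs (vertical), both log2 over 6 arrays, with the measured genes of 5 lists colored in each panel. The solid line marks equal signal, the dashed lines a 2-fold difference and the dotted lines the median background of each group. Endothelial, pericyte and most muscle genes lie above the upper dashed line and most synaptic genes below the lower one, but well over the background of BMVs.

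Bands of mean signal sort clusters with different probes and give a description only. Among genes whose mean signal in BMVs lay between 12 and 15, 82 of 188 were higher (43.6%), against 861 of 5895 (14.6%) between 6 and 8. Among genes whose mean in BT lay between 12 and 15, 78 of 197 were lower (39.6%), against 284 of 5201 (5.46%) between 6 and 8. The same signals enter the level and the change. The hypoxia factor Epas1 had a signal of 13.47 at the lowest, 13.50 at the median and 13.52 at the highest in BMVs, against 11.22, 11.33 and 11.39 in BT (log2 fold change 2.17, adjusted p = 4.83e-21 from limma). Igfbp7, a secreted binding protein of the vessel wall, was at 13.55 to 13.65 against 10.55 to 10.82. The intermediate filament gene Vim was 9.82-fold higher, at 12.97 to 13.16 against 9.63 to 9.97. For these 3 genes every BMV array exceeded every BT array.

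Endothelial genes were higher without exception. All 26 measured genes of the endothelial list were higher in BMVs (16.3% of all genes), with a median of 3.62, from 1.18 for the sphingosine receptor S1pr1 to 4.76 for von Willebrand factor. Vwf had a lowest, median and highest signal of 11.97, 12.09 and 12.26 in BMVs and of 7.13, 7.30 and 7.66 in BT, a 27.1-fold difference. Cldn5, the claudin of the barrier, reached 13.59, 13.63 and 13.67 in BMVs but was also far above background in BT, at 10.31, 10.49 and 10.62, and differed 8.83-fold (log2 fold change 3.14, standard error 0.0941, adjusted p = 6.4e-21 from limma). The groups did not overlap for either gene. The receptor kinase gene Tie1 had 4.43, the transcription factor gene Erg 4.39 and the guidance receptor gene Robo4 4.28.

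The 25 measured genes of barrier transport, which carry nutrients into the brain and drugs out of it, were all higher, with a median of 2.93. The efflux pump genes Abcb1a and Abcg2 had 4.28 and 4.20, and the riboflavin transporter gene Slc52a3 had 4.25. Slc2a1, the glucose transporter of the barrier, stood at 13.54, 13.63 and 13.67 in BMVs and at 11.02, 11.16 and 11.27 in BT (5.55-fold). Slc38a3, a glutamine transporter that astrocytes use as well, stood at 12.72, 12.89 and 12.96 against 10.35, 10.40 and 10.53. Slc38a3 did not follow this pattern in the retina, where its change was -0.08 and the difference between the enrichments, -2.52, had an adjusted p = 1.45e-18 (limma). Over all genes the enrichment was lower in the retina for 935 (5.15%) and higher for 1893 (10.4%), and in this list for 8 and 2 of 25.

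Both mural cell types were represented. All 16 pericyte genes were higher, with a median of 3.55, and 15 of 18 smooth muscle genes, with a median of 3.00. The pericyte receptor Pdgfrb had signals of 11.59, 11.76 and 11.88 in BMVs and of 8.02, 8.20 and 8.26 in BT. The receptor gene Notch3 had 4.24, the peptidase gene Anpep 4.22, and Gja4, a connexin of the vessel wall, and the pericyte marker Ndufa4l2 had 3.87 each. Kcnmb1, the subunit that tunes the large calcium-activated potassium channel of smooth muscle, was one of the genes with the largest change of all: it reached 11.21, 11.58 and 11.72 in BMVs and 5.75, 6.29 and 6.82 in BT, where it passed the background on some arrays only. The actin-binding Tagln stood at 12.69, 12.97 and 13.15 against 7.67, 8.39 and 8.60. Its lowest BT signal belonged to BT replicate 1, which was also the lowest of its group for the mean of the pericyte, the smooth muscle and the fibroblast list. The light chain gene Myl9 and the desmin gene Des had 4.69 each, and Tpm1, a tropomyosin that many cell types make, was the member with the lowest change (-0.13).

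**Figure D2:**
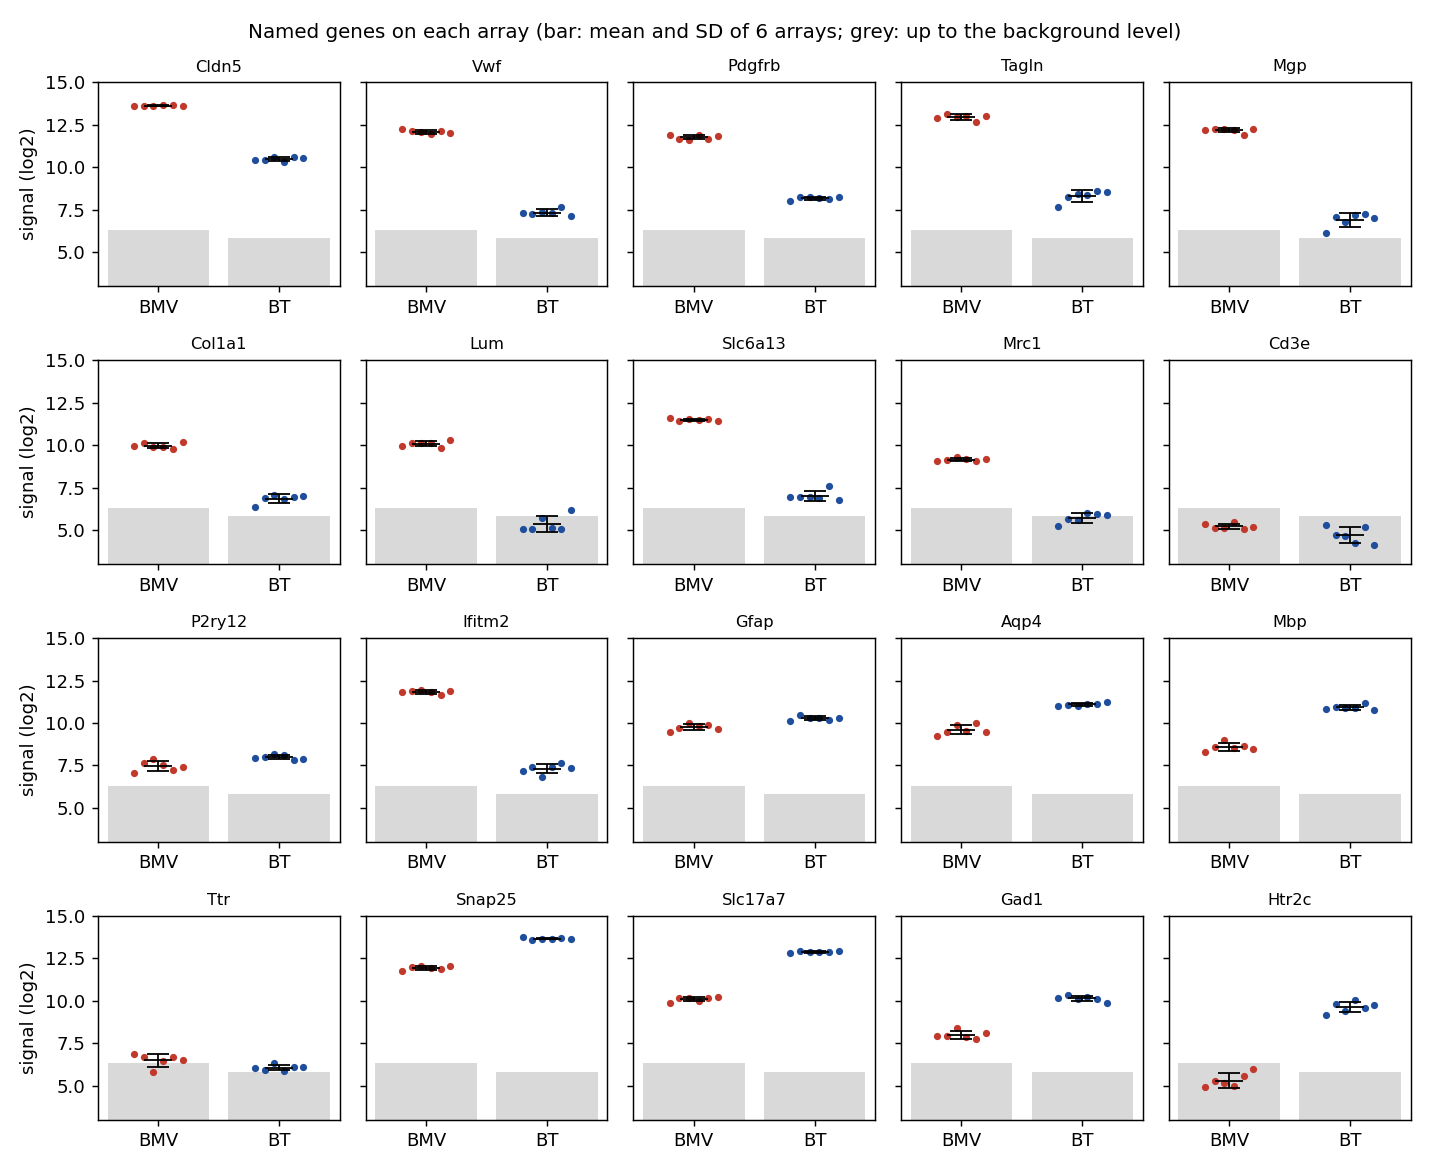
Signal (log2) of 20 named genes on each of 12 arrays, BMVs in red and BT in blue, with replicates 1 to 6 from left to right. Bars give the mean and SD of 6 arrays and grey areas reach up to the highest background of the group. Vascular genes such as Vwf do not overlap between groups, Snap25 and Slc17a7 fell but stay far above the grey area in BMVs, and Cd3e lies within it in both groups.

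Most fibroblast matrix genes were higher in BMVs too. Of 24 measured fibroblast matrix genes 19 were higher and none lower, with a median of 2.46, and 15 were higher after quantile normalization. Mgp, which inhibits calcification of the vessel wall, had signals of 11.92, 12.21 and 12.27 in BMVs and 6.10, 7.06 and 7.25 in BT (38.6-fold, adjusted p = 2.58e-21 from limma). The collagen gene Col1a1 had 9.78, 9.94 and 10.18 against 6.38, 6.92 and 7.06 (8.72-fold), and the small proteoglycan gene Ogn 11.77, 12.01 and 12.10 against 7.35, 7.45 and 7.88. For all of these the lowest BMV array was above the highest BT array. Lum, a proteoglycan that spaces collagen fibrils, reached 9.85, 10.11 and 10.31 in BMVs but 5.04, 5.10 and 6.20 in BT, where a single array, BT replicate 6, was above its background. Aspn, of the same proteoglycan family, was within background in BT on every array and at least 11.1-fold higher in BMVs. In the retina Lum changed by 0.21 only, so that its enrichment differed between the organs by -4.51 (adjusted p = 1.32e-15 from limma), and 10 of the 24 members were less enriched there and none more.

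Genes listed for the meningeal barrier and arachnoid were higher in part. The meninges had been dissected away, and which cells gave these transcripts was not tested. Of 21 measured genes of the meningeal barrier and arachnoid list 11 were higher and 1 lower, with a median of 1.19 (7 higher after quantile normalization, median 0.54), 10 were above background in BT and 4 within background in both groups. The mean level of the list lay between 7.66 and 7.91 on BMV arrays and between 6.22 and 6.39 on BT arrays. Slc6a13, a GABA and taurine transporter, had 11.39, 11.49 and 11.58 in BMVs and 6.78, 6.92 and 7.62 in BT, and the organic anion transporter gene Slc22a6 had 9.91, 10.35 and 10.45 against 5.88, 6.24 and 6.33. The sulfate transporter gene Slc13a4 had 3.25 and the proline transporter gene Slc6a20a 3.22. In the retina these 4 genes changed by 0.28, 0.62, 0.52 and 0.28. Ptgds, the prostaglandin D synthase of arachnoid cells and also of oligodendrocytes, was at 13.02, 13.19 and 13.27 against 10.68, 10.79 and 10.91. The member that was lower was Gjb6, a connexin of astrocytes, with -1.79. The part of meningeal cells in the fibroblast result was not tested.

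All 19 measured basement membrane genes were higher, with a median of 2.74. The nidogen gene Nid1, which links laminin to collagen IV, had signals of 12.08, 12.15 and 12.29 in BMVs and of 7.74, 7.96 and 8.13 in BT, Tinagl1 had 4.63, and the laminin gene Lamb2 and Nid2 had 3.72 each. The matrix protein gene Sparc was among the transcripts with high signal in both groups (13.43 ± 0.03 against 12.02 ± 0.08, SD, n = 6). Of the 19 genes 9 were less enriched in the retina and none more.

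Matrix assembly and turnover changed unevenly. Of 21 genes of elastic fibres and collagen crosslinking 15 were higher (10 after quantile normalization) and 1, the prolyl hydroxylase gene P4ha3, was lower (-1.12). Lox, the oxidase that crosslinks collagen and elastin, was within background on all BT arrays, at 2.78, 3.44 and 3.95, and above it on all BMV arrays, at 7.49, 7.72 and 8.31, and thus at least 4.15-fold higher. The TGF-β binding protein genes Ltbp1 and Ltbp4 had 3.77 and 3.08. Among 26 proteases and inhibitors 14 were higher and 4 lower. The inhibitor gene Timp3 stood at 12.07, 12.29 and 12.53 against 9.38, 9.43 and 9.59, while Timp1 rose to 6.25, 6.68 and 6.89 from a BT signal of 3.64, 3.72 and 3.88 that lay within background, and was at least 1.86-fold higher. The BMV signal of Timp1 was itself near the background of those arrays. The opposite direction was taken by Serpini1, the serpin of neurons, with 6.38, 6.82 and 7.11 in BMVs against 10.06, 10.18 and 10.31 in BT, and by the protease genes Adamts3 (within background in BMVs, at least 3.39-fold lower) and Mmp16 (-1.69).

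Genes that keep blood fluid and set vessel tone were mostly higher. Of 25 hemostasis genes 14 were higher and 1 lower. Ptgis, which makes prostacyclin, had 9.22, 9.37 and 9.44 in BMVs and lay within background in BT at 4.87, 5.02 and 5.16, a difference of at least 12.1-fold. The C1 inhibitor gene Serping1 had 4.30, the thrombomodulin gene Thbd 3.82 and the tissue factor inhibitor gene Tfpi 3.51. The lower member, Serpine2, had -1.03, a call that was lost after quantile normalization (-0.93) and without BMV replicate 1 (-0.99). Of 30 genes of vascular tone 18 were higher and 5 lower. The endothelin gene Edn1 reached 8.25, 8.76 and 8.93 and was within background in BT at 4.60, 5.06 and 5.56 (at least 7.64-fold higher), the angiotensin-converting enzyme gene Ace had 3.15 and the nucleotide sugar receptor gene P2ry14 3.82. The phosphodiesterase gene Pde3a had 3.25 and Pde1a, of the same enzyme family, -2.17. Growth factors showed both directions, with 20 of 41 higher and 7 lower: Pdgfd (3.72), Bmp7 (3.29), Fgf1 (3.20) and Bmp2 (within background in BT, at least 6.82-fold) rose, and the intracellular factors Fgf13 (-3.25) and Fgf12 (-2.81) and the neuregulin gene Nrg3 (-1.88), all known from neurons, fell.

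**Figure D3:**
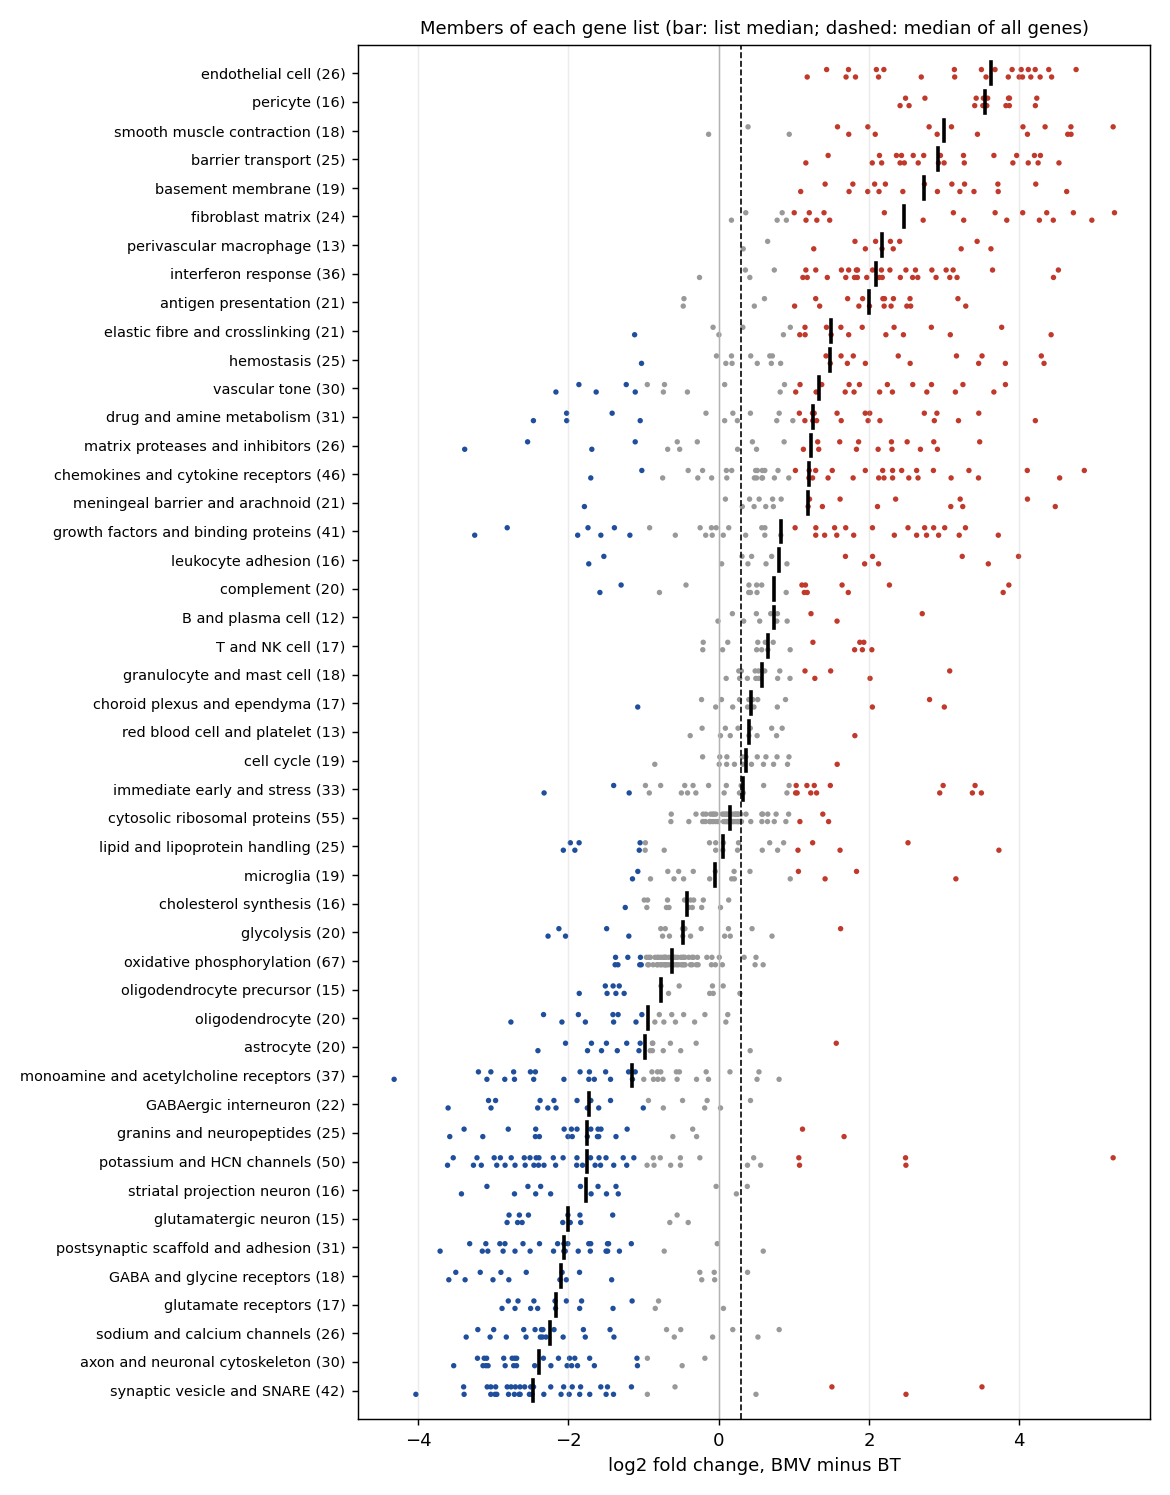
Log2 fold change, BMV minus BT, of every measured gene of 47 lists (number of genes in parentheses), ordered by the list median. Black bars mark list medians, the dashed line the median of all genes (0.30), red points a change of 1 or more and blue points of -1 or less. Vascular and matrix lists stand at the top, neural lists at the bottom, and microglia, lipid handling and ribosomal protein genes near the dashed line.

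Genes of perivascular macrophages were higher in BMVs, whereas microglia genes had about the shares of all genes. Of 13 genes of perivascular macrophages 11 were higher (10 after quantile normalization) and none lower, with a median of 2.18, and only 4 were above background in BT against 11 in BMVs. Mrc1, the mannose receptor that defines them, had 9.04, 9.15 and 9.28 in BMVs and 5.22, 5.75 and 6.00 in BT. The scavenger receptor genes Stab1 and Cd163 had 3.63 and 3.23, with no overlap between the arrays. In the retina Mrc1 changed by 0.31, and 10 of the 13 genes were less enriched there (5.15% of all genes).

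Of 19 microglia genes 4 were higher and 2 lower (21.1% and 10.5%, against 16.3% and 10.5% of all genes), the median was -0.04, and all 19 were above background in BMVs. On the deposited scale the mean level of the list was 8.06 to 8.27 on BMV arrays and 7.89 to 8.03 on BT arrays, while its median lay below 0. The macrophage and the microglia list were not tested against each other. The purine receptor P2ry12, used here as a marker of microglia, had 7.07, 7.47 and 7.86 in BMVs and 7.79, 7.99 and 8.17 in BT. The groups overlapped, and its change of -0.53 did not reach 2-fold. Tmem119 was at 6.81, 7.03 and 7.41 against 7.83, 7.95 and 8.14 (-0.91), and called lower after quantile normalization. The fractalkine receptor gene Cx3cr1 was lower (-1.15), as was Selplg (-1.08, but -0.98 without BMV replicate 1). The members that were higher were the lysosomal gene Cd68 (within background in BT, at least 4.06-fold), the pan-leukocyte gene Ptprc (1.84), Olfml3 (1.42) and the adaptor gene Tyrobp (1.06). Cd68, Ptprc and Tyrobp are also expressed by macrophages outside the parenchyma.

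Genes of blood cells lay within background in many cases. Of 17 T and NK cell genes 6 were higher (35.3%, against 16.3% of all genes), with 7 within background in both groups, among them Cd3e, at 5.07, 5.17 and 5.47 in BMVs and 4.12, 4.67 and 5.29 in BT. Cd3d reached 6.31, 6.55 and 6.88 and the perforin gene Prf1 6.87, 7.24 and 7.59 in BMVs, just above background, and both were within it in BT, for differences of at least 1.78-fold and 2.75-fold. Of 12 B and plasma cell genes 3 were higher (25%, but 1 gene after quantile normalization), of 18 granulocyte and mast cell genes 5 (27.8%, but 2 genes after quantile normalization) and of 13 red cell and platelet genes 1 (7.69%), the membrane protein gene Epb42 (at least 2.44-fold). Within background in both groups were 4, 11 and 5 genes of these lists. The granulocyte gene S100a8 had 6.30, 7.33 and 7.98 in BMVs, the widest spread of the genes named here for blood cells, and 3.84, 4.19 and 4.35 in BT, within background (at least 2.80-fold higher). The medians of these 4 lists, 0.66, 0.73, 0.57 and 0.40, stood beside 0.30 for all genes, and those of the granulocyte and the red cell list turned to -0.02 and -0.15 after quantile normalization.

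Interferon-responsive genes were higher in BMVs as a group. Of 36 measured members 32 were higher and none lower, with a median of 2.09 (27 higher after quantile normalization, median 1.71). Only 19 of them were above background in BT, against 33 in BMVs. Ifitm2, which blocks the entry of viruses, had 11.65, 11.84 and 11.93 in BMVs and 6.84, 7.37 and 7.61 in BT. Ifitm1 had 4.46, the ubiquitin ligase gene Trim25 3.17, and the deconjugating enzyme gene Usp18 had 9.38, 9.73 and 10.93 against 5.67, 6.29 and 7.04, with a wide spread within BMVs. The level of the list varied too: its mean was 9.15 on BMV replicate 1 and 9.04 on BMV replicate 5, and between 8.51 and 8.73 on the other 4 BMV arrays, while BT arrays lay between 6.59 and 6.76. In the retina 7 of the 36 were less enriched and none more. Markers of perivascular macrophages rose with these genes (11 of 13) and so did some of T and NK cells (6 of 17), with mean list levels of 7.78 to 7.93 on BMV and 5.70 to 5.80 on BT arrays for the first and of 5.89 to 6.05 and 5.04 to 5.15 for the second. Their part in the interferon result was not tested.

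Interferons act through the factors ISGF3 and IRF, which bind a response element in the promoters of their targets. Its core was searched because members of this list are known targets of interferon-activated factors. A higher share than in all promoters was therefore given by the choice of members, whatever their change in BMVs. Of the 36 genes 28 matched a single RefSeq promoter (assembly GRCr8). GAAA, any 2 bases and again GAAA, read on both strands, occurred in the 250 bases before the start in 17 of these 28 (60.7%), against 1140 of all 33469 promoters (3.41%). In 15 of the 17 the site nearest to the start began within 100 bases of it. For the 8 of these with the largest change, chosen after their values were seen, the 100 bases before the start follow in the direction of transcription, with the core in capitals, which reads TTTC, any 2 bases and TTTC where it lies on the other strand.
Ifitm2, chr1:205482349-205482448, minus strand: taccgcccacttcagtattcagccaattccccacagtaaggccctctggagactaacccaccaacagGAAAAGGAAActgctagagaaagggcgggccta
Gbp5, chr2:233910899-233910998, plus strand: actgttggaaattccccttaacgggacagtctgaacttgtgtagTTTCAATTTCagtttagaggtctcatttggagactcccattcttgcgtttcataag
Irf7, chr1:205800024-205800123, minus strand: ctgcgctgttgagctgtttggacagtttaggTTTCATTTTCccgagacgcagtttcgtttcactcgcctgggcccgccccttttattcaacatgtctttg
Ifit3, chr1:241527226-241527325, plus strand: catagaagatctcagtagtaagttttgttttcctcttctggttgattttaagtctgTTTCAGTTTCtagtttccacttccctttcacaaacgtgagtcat
Parp14, chr11:78408034-78408133, plus strand: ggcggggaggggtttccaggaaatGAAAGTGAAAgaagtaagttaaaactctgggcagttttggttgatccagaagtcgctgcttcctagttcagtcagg
Gbp2, chr2:234005627-234005726, plus strand: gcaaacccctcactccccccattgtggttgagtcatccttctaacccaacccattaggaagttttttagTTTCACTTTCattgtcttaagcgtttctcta
Ifi44, chr2:243303841-243303940, minus strand: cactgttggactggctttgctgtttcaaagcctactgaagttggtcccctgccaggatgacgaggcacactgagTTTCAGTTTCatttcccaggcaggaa
Ifih1, chr3:67683969-67684068, minus strand: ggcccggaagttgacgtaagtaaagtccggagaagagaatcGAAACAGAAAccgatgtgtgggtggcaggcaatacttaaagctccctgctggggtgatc

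These 8 genes rose by 4.52 (Ifitm2), 3.08 (the guanylate-binding Gbp5), 2.89 (the transcription factor gene Irf7), 2.84 (Ifit3), 2.58 (Parp14), 2.49 (Gbp2), 2.42 (Ifi44) and 2.18 (the RNA sensor gene Ifih1) on the log2 scale, of which Ifit3 and Gbp2 were within background in BT. The matches are descriptions of the sequence and not sites shown to be bound. In the same way the CArG box, the element of smooth muscle genes, was looked for in 12 of the 18 smooth muscle promoters and in all. It occurred in none of the 12 and in 501 of all 33469 (1.5%), which says only that these letters are not in the 250 bases searched.

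Antigen presentation, complement and cytokine reception followed in part. Of 21 genes of antigen presentation 17 were higher and none lower, with a median of 2.01. Cd74, the invariant chain of MHC class II, had 11.49 ± 0.09 in BMVs and 8.20 ± 0.15 in BT (SD, n = 6), RT1-S3 had 3.19, the immunoproteasome gene Psmb9 2.56 and the peptide loading gene Tapbp 2.55. B2m was at 13.30, 13.35 and 13.49 against 11.26, 11.38 and 11.47. Of 20 complement genes 9 were higher (5 after quantile normalization) and 2, C1ql2 and C1ql3 of the synapse, were lower. The adipsin gene Cfd had 10.64, 10.86 and 11.19 against 6.91, 6.97 and 7.26, and C7 had 8.62, 8.83 and 9.12 and was within background in BT (at least 8.44-fold higher).

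Of 46 chemokines and cytokine receptors 25 were higher and 2 lower, and 10 were within background in both groups. The oncostatin M receptor gene Osmr had 10.05, 10.32 and 10.49 in BMVs and 5.14, 5.32 and 5.93 in BT. The death ligand gene Tnfsf10 had 4.54, the interleukin-1 receptor gene Il1r1 4.11 and the chemokine gene Cxcl12 3.46. The lower members were Cntfr, the receptor of ciliary neurotrophic factor (-1.70), and the decoy receptor gene Ackr2 (-1.02), whose call was lost without BMV replicate 6 (-0.99). Of 16 genes of leukocyte adhesion 7 were higher, among them Bcam (3.99), F11r (3.59), Mcam (3.24) and Icam2 (2.13), and 2 lower, Icam5 of neurons (within background in BMVs, at least 2.92-fold) and Cd99l2 (-1.53).

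Genes of neural functions were lower in BMVs than in BT, but to a depth that differed between genes. Of 42 genes of the synaptic vesicle and SNARE list 36 were lower (10.5% of all genes) and the median was -2.47. Of 31 postsynaptic genes 28 were lower, of 30 genes of the axon and the neuronal cytoskeleton 27, and their medians were -2.06 and -2.39. Napb, a factor that recycles SNARE complexes in neurons, fell from 9.87 ± 0.08 in BT (SD, n = 6) to 5.57, 5.90 and 6.02 in BMVs, which is within background and at least 12.3-fold lower. Snap25, the SNARE protein of the nerve ending, fell from 13.61, 13.66 and 13.74 to 11.77, 11.97 and 12.06, a 3.29-fold loss that left its signal on every BMV array far above background. Of the 42 genes 38 remained above background in BMVs and 2 were within it. The vesicle gene Sv2b and the calcium sensor gene Syt4 had -3.39 each, the active zone gene Pclo -3.08, the postsynaptic organizer genes Lrfn5 and Slitrk5 -3.31 and -3.10, and the stathmin gene Stmn3 -3.53.

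The same list held 3 genes in the opposite direction. Vamp5 had 11.13, 11.25 and 11.36 in BMVs against 7.52, 7.72 and 7.94 in BT, Vamp8 2.49 and Vamp3 1.51, and all 3 encode vesicle SNAREs that are used outside neurons. Likewise 5 of 50 potassium channel genes were higher (3 after quantile normalization), Kcnmb1, the pericyte channel gene Kcnj8 (2.49) and Kcne4 among them. Kcne4 was within background in BT and had 5.20 to 6.72 in BMVs. There replicates 1, 4 and 5 lay below background, so that no lower bound is given for it. Of the 50 genes 34 were lower. Dpp10, Kcnc2, Kcnh5 and Kcnj3 lay between -3.61 and -3.22.

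Marker genes of several classes of neurons were lower in BMVs. Slc17a7, the vesicular glutamate transporter of cortical excitatory neurons, had 9.90, 10.14 and 10.20 in BMVs and 12.80, 12.89 and 12.92 in BT (6.92-fold lower), and 12 of 15 glutamatergic genes were lower and none higher. Of 22 genes of GABAergic interneurons 15 were lower and none higher. Gad1, which makes GABA, had 7.73, 7.91 and 8.38 against 9.90, 10.14 and 10.34, and Lamp5, a marker of a class of interneurons, 7.71, 7.88 and 7.96 against 11.20, 11.44 and 11.62. Of 16 genes of striatal projection neurons 13 were lower. The G protein subunit gene Gng7 had -3.42 and the dopamine receptor genes Drd1 and Drd2 had -3.08 and -2.72. Among the neural lists the BT arrays differed most for this one, with a mean list level between 8.85 and 9.15, the highest on BT replicate 4, where Drd1 was at 10.04 against 9.45 to 9.57 on the other BT arrays.

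Receptors and channels followed. Of 17 glutamate receptor genes 14 were lower, of 18 GABA and glycine receptor genes 13, of 26 sodium and calcium channel genes 19, of 37 monoamine and acetylcholine receptor genes 20 (29 after quantile normalization) and of 25 granins and neuropeptides 20. Htr2c, a serotonin receptor, fell to 4.90, 5.20 and 6.01 in BMVs from 9.19, 9.66 and 10.04 in BT, and was then within background and at least 10.4-fold lower. The NMDA receptor subunit gene Grin2a had -2.88, the GABA receptor subunit genes Gabra3 and Gabrb2 -3.50 and -3.38, the sodium channel genes Scn4b and Scn2a -3.36 and -3.21, and the granin gene Chgb -3.58. Pomc and Npb, which encode neuropeptide precursors, were higher instead (1.67 and 1.12), and Npb lost this call after quantile normalization (0.48). In the retina these losses were shallower: of the 42 synaptic genes 34 had a higher enrichment there, as had 1893 of all genes (10.4%), and the subunit gene Gabra5 changed by -3.59 in the brain and 0.48 in the retina (difference 4.07, adjusted p = 1.32e-15 from limma).

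Some lower genes that were named for a very high signal in BT stayed well above background in BMVs. Uchl1, the ubiquitin hydrolase of neurons, had 10.65, 10.84 and 11.02 in BMVs against 13.14, 13.17 and 13.20, and Nrsn1 9.89, 10.15 and 10.47 against 12.93, 13.09 and 13.13. Ywhah, a 14-3-3 protein, fell 2.26-fold only, from 13.52, 13.57 and 13.59 to 12.24, 12.42 and 12.47. The groups did not overlap for any of the 3.

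Glial lists were lower in BMVs by less than neuronal ones, or not lower, by their medians. Of 20 astrocyte genes 10 were lower and 1 higher, with a median of -0.98. Aqp4, the water channel of the endfeet that wrap the vessels, had 9.25, 9.51 and 10.01 in BMVs and 11.02, 11.07 and 11.24 in BT (2.82-fold lower). Gfap, the filament of astrocytes, had 9.49, 9.78 and 10.03 against 10.12, 10.28 and 10.47, with no overlap but a change of -0.51 that was under 2-fold. The integrin gene Itgb8 had -2.41 and Aldoc -2.04, whereas Mertk, a receptor for engulfment that macrophages use as well, was higher (1.57). Of 20 oligodendrocyte genes 10 were lower and none higher, with a median of -0.94. Mbp of the myelin sheath had 8.30, 8.54 and 9.01 against 10.77, 10.89 and 11.18, so that BT retained myelin transcripts after removal of the white matter, and Ermn had -2.77. Of 15 genes of oligodendrocyte precursors 7 were lower.

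Of 17 genes of the choroid plexus and ependyma 3 were higher and 1 lower (17.6% and 5.88%), near the 16.3% of all genes for the first. Ttr, the transthyretin that plexus cells make in abundance, stood near background with 5.79, 6.59 and 6.86 in BMVs and 5.86, 6.08 and 6.32 in BT, and the groups overlapped (adjusted p = 0.31 from limma). The higher members were Rarres2 (2.81) and, both within background in BT, Kl (at least 4.70-fold) and the potassium channel gene Kcnj13 (at least 2.27-fold). The lower one, Rsph1 of motile cilia (-1.08), was within background in BMVs and lost its call without BT replicate 3 (-0.96) or BT replicate 6 (-0.99).

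The neural remainder, whose source in the BMVs was not tested, varied between BMV arrays in the same sense for many lists. BMV replicate 3 had the highest mean level of the 6 BMV arrays for 9 of 12 neural and 3 of 4 glial lists, and BMV replicate 1 the lowest for 10 and 3. For the synaptic list the BMV arrays lay between 8.34 and 8.53, and for the oligodendrocyte list between 8.26 and 8.63. These ranges were small beside the distance to BT, where the lists lay between 10.34 and 10.44 and between 9.36 and 9.58.

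**Figure D4:**
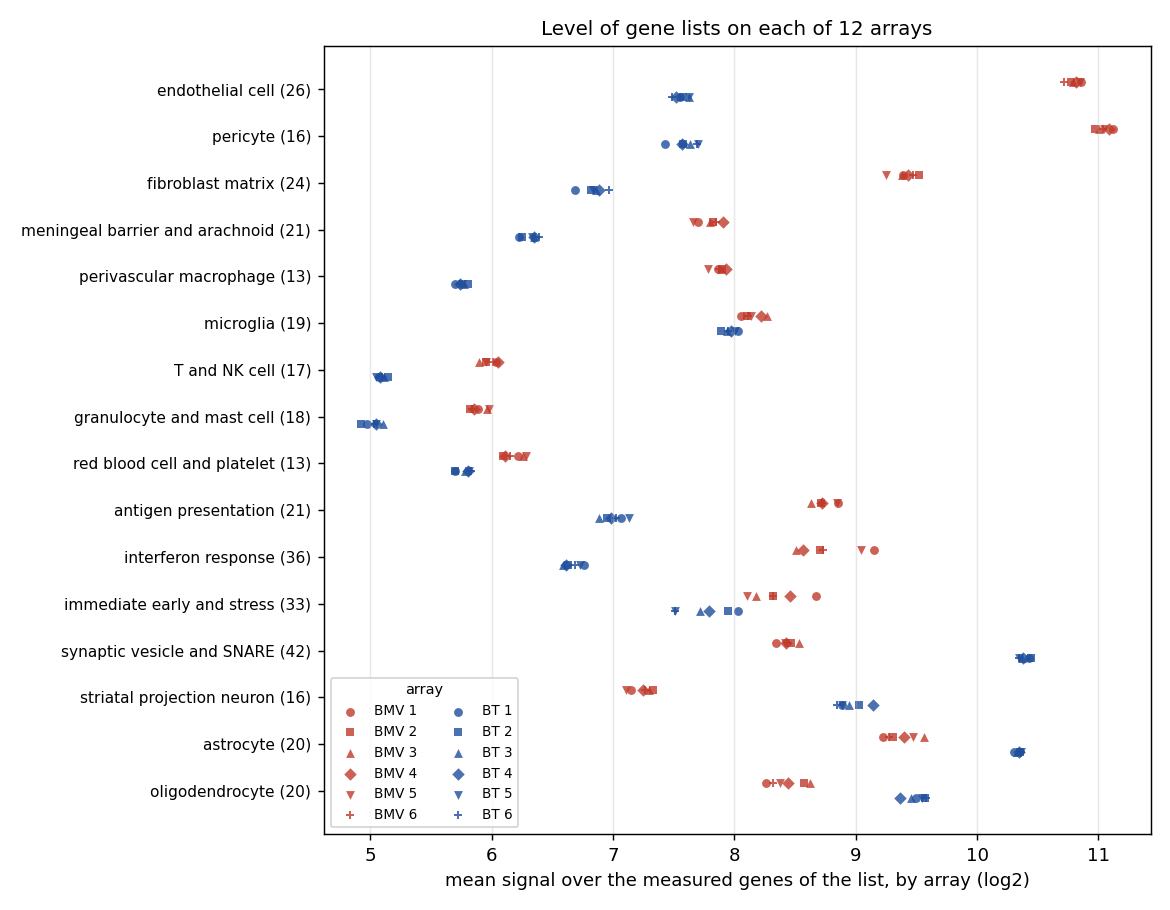
Mean signal (log2) over the measured genes of 16 lists on each of 12 arrays, BMVs in red and BT in blue, with a symbol for each replicate number. The groups are separated for every list shown, and the interferon and the stress list have the widest spread within a group.

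Few genes of oxidative phosphorylation, cytosolic ribosomal proteins and cholesterol synthesis reached 2-fold, while glycolysis had a larger share of lower genes. None of 67 nuclear genes of oxidative phosphorylation was higher and 7 were lower (10.4%, against 10.5% of all genes; 5 after quantile normalization, but 50 with arrays centred on their medians), with a median of -0.62, led by Atp5mc3 at 9.83, 10.05 and 10.10 against 11.30, 11.39 and 11.44. The mean of this list was nevertheless lower on every BMV array (10.38 to 10.58) than on any BT array (11.03 to 11.09). Of 20 glycolysis genes 5 were lower (25%, against 10.5% of all genes), with a list median of -0.48. Among them were the neuronal enolase gene Eno2 (-2.27) and the phosphofructokinase gene Pfkm (-2.13). Pdk4, which holds pyruvate back from oxidation, was higher (1.62). Of 55 cytosolic ribosomal protein genes 3 were higher (5.45%), or 1 after quantile normalization, and the median was 0.15. Of 16 cholesterol synthesis genes 1 was lower, Cyp51 (-1.24), and Sqle and Msmo1, at -0.99 and -0.96, passed the threshold in some fits without 1 array.

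Lipid and drug handling genes changed in both directions. Of 25 genes of lipid and lipoprotein handling 5 were higher and 6 lower, with a median of 0.06. These are 20% and 24%, against 16.3% and 10.5% of all genes, and 3 were higher after quantile normalization. Pltp, which transfers phospholipids between lipoproteins, was at 12.81, 12.87 and 12.93 in BMVs and 9.02, 9.15 and 9.21 in BT (13.3-fold), the lipase gene Pnpla2 had 1.62 and Angptl4, an inhibitor of lipoprotein lipase, 2.52, while the binding protein genes Fabp3 and Fabp7 of neural cells had -1.97 and -1.91. Of 31 genes of drug and amine metabolism 18 were higher and 5 lower (58.1% and 16.1%). The glutathione transferase gene Gstm2 had 3.46 and the monooxygenase genes Fmo2 and Fmo1 3.19 and 2.91, against -2.47 for Cyp46a1, the cholesterol hydroxylase of neurons.

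Of 33 immediate early and stress genes, which respond quickly to handling and to neuronal activity, 13 were higher and 3 lower. These are 39.4% and 9.09%, against 16.3% and 10.5% of all genes, so that the lower share was near that of all genes. After quantile normalization 5 were higher and 5 lower. The krüppel-like factor genes Klf4 and Klf2 of endothelium had 3.50 and 2.99, the NF-kB inhibitor gene Nfkbia 3.41 and the heat shock protein gene Hspb1 3.38. The lower ones, Arc (-2.32), Egr3 (-1.40) and Egr2 (-1.19), are activity genes of neurons. Arc ranged from 8.93 to 10.68 on BT arrays and from 7.02 to 7.96 on BMV arrays, without overlap. Without BT replicate 5 or BT replicate 6 the lower count was 5.

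Of the 1344 olfactory and vomeronasal receptor genes that set the background, 101 were higher and 3 lower (7.51% and 0.223%), and 7 and 23 after quantile normalization, with 1212 within background in both groups. Or51e1, a receptor for short-chain acids that is also known outside the nose, had 9.93, 10.06 and 10.69 in BMVs and was within background in BT, at 4.53 to 5.29, a difference of at least 20.9-fold. Vom2r57 went the other way, from 6.24, 7.07 and 8.26 in BT to 3.18, 3.56 and 4.71 in BMVs, within background and at least 1.87-fold lower. Of 19 cell cycle genes 1 was higher (5.26%, against 16.3% of all genes), Mcm2 (1.58). Above background were 7 of the 19 in BMVs and 8 in BT, and 6, Mki67 among them, were within it in both groups.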

How the data were processed

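The labels and the study's methods gave the groups. The deposited values were log2 signals that the authors had computed and normalized in Affymetrix Expression Console 4.0, the normalization method of which is not given in the sources used here. Of 36685 transcript clusters 18511 had 1 gene symbol, 575 several and 17599 none here, and the cluster with the highest mean over 24 arrays stood for a gene, which gave 18166 genes, 291 of them with several clusters. All 24 arrays were fitted with a model of 4 groups without a block in limma 3.58.1 (R 4.3.3), with two-sided moderated tests, Benjamini-Hochberg adjustment and thresholds of 2-fold and 0.05. The fit was tested on simulated data of 18166 genes, where 100% of changes of 4-fold or more were called among 200 changed genes. Levels, lists and promoters were handled in Python 3.11.15 with pandas 2.3.3 and numpy 2.4.6. The precision is set by 6 arrays a group. Named genes are the 25 largest changes in either direction without overlap of the arrays, up to 4 members of a list with the largest change in the direction of its median and up to 3 called in the other, the 15 called genes of highest mean signal in either direction, defining markers, and the 5 largest differences of enrichment in either direction. S1pr1, Tpm1, Tyrobp and the genes named only for their promoters (Gbp5, Irf7, Ifit3, Parp14, Gbp2, Ifi44 and Ifih1) fell outside this rule and were chosen after their values were seen. Promoters came from RefSeq (GRCr8). The members and lists were chosen with earlier results of these data known. Alternatives were quantile normalization, centring on array medians, a filter on low signal, treat, array weights, a trend in eBayes, averaging the clusters of a gene, the 12 arrays alone, a replicate block, another background percentile and leaving out each array.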

Additional observations from a re-analysis of the deposited data

Results flagged for a closer look

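Of 574 groups of 6 arrays, 33 (5.75%) held an array that stood apart from the others by Dixon's test, about as many as the 1 in 20 that chance gives. Each is given below with its signal and the median of the other 5 arrays in parentheses. BMV replicate 1 was the lowest of its group for Gabra2 at 6.71 (7.31), Gabra5 at 6.59 (7.04) and Selplg at 7.80 (8.40). BMV replicate 2 was the lowest of its group for Ptprc at 7.06 (7.68). BMV replicate 4 was the lowest of its group for Pomc at 7.48 (7.61). BMV replicate 5 was the lowest of its group for Bmp7 at 9.26 (9.75), Mgp at 11.92 (12.22), Slc13a4 at 10.47 (11.07) and Slc22a6 at 9.91 (10.42). BMV replicate 6 was the lowest of its group for Sigirr at 10.37 (10.59). BMV replicate 1 was the highest of its group for Lamb2 at 12.10 (11.95) and Ndufa4l2 at 10.47 (10.21). BMV replicate 2 was the highest of its group for Slc38a5 at 10.55 (9.97). BMV replicate 3 was the highest of its group for Camk2n1 at 12.35 (12.07) and Kcnh5 at 6.90 (5.92). BMV replicate 6 was the highest of its group for Or51e1 at 10.69 (10.02). BT replicate 1 was the lowest of its group for Loxl2 at 5.17 (5.36) and Rps15 at 9.36 (9.71). BT replicate 2 was the lowest of its group for Ackr2 at 7.48 (7.85) and C7 at 4.57 (5.10). BT replicate 3 was the lowest of its group for Ano3 at 9.32 (9.56) and Tnfsf10 at 7.13 (7.58). BT replicate 5 was the lowest of its group for Pclo at 9.81 (10.10) and Sigirr at 5.49 (6.11). BT replicate 1 was the highest of its group for Prom1 at 7.58 (7.22) and Slc38a3 at 10.53 (10.39). BT replicate 2 was the highest of its group for Fmo2 at 6.33 (5.38) and Pfkp at 11.52 (11.30). BT replicate 4 was the highest of its group for Drd1 at 10.04 (9.50). BT replicate 5 was the highest of its group for Calm2 at 13.26 (13.17), Mbp at 11.18 (10.86), Rpl6 at 11.97 (11.66) and Slc6a13 at 7.62 (6.92).

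The enrichment, microvessels minus tissue, differed between retina and brain by the test of the difference itself (limma): 935 genes were less enriched in the retina and 1893 more. Among the named genes, enrichment was lower in the retina for Cfd (3.86 in the brain, 0.27 in the retina, difference -3.59), Lum (4.72 in the brain, 0.21 in the retina, difference -4.51), Prom1 (4.36 in the brain, 0.39 in the retina, difference -3.97), Slc6a13 (4.48 in the brain, 0.28 in the retina, difference -4.20) and Tfap2b (3.59 in the brain, -0.51 in the retina, difference -4.10). It was higher in the retina for Ano3 (-3.26 in the brain, 0.49 in the retina, difference 3.75), Gabra5 (-3.59 in the brain, 0.48 in the retina, difference 4.07), Gda (-0.64 in the brain, 3.52 in the retina, difference 4.16), Kcnv1 (-2.95 in the brain, 0.69 in the retina, difference 3.64) and Nrgn (-2.08 in the brain, 1.77 in the retina, difference 3.85). Tfap2b was within background in BT.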

How the results depend on the processing

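The number of arrays limits the precision, and signals near the background of the receptor genes carry little information on level. Of 2969 higher genes 1800 were counted after quantile normalization, 1393 with arrays centred on their medians and 1622 without genes below the median signal, where fewer genes were tested. The 1903 lower genes became 3873 with centred arrays. The median of all genes, 0.30, became -0.15 after quantile normalization and -0.31 with centred arrays. With the 99th percentile of the receptor genes as background, higher genes within background in BT went from 701 to 1444 and lower genes within background in BMVs from 199 to 591, while those above background in both groups fell from 1883 to 1077 and from 1501 to 970. Leaving out each array in turn gave 2944 to 3002 higher and 1881 to 1923 lower genes. A test against 2-fold itself (treat) gave 2098 and 1490. The replicate block left the counts at 2969 and 1903 and changed the call of none of 287 named genes. Same-numbered BMV and BT arrays deviated together by correlations of -0.085 to 0.120, with 1 of 6 pairs over 0.1, and 3 of 6 BMV arrays correlated best with their own number. These values do not settle whether a number marks a pair. The numbers were not used as pairs because the labels do not tie them to rats. Of the 287 named genes 251 kept their call under every alternative that tested them, where only 220 were tested without genes below the median signal. Of 94 list counts 12 moved by over 1.5 times after quantile normalization, 26 with centred arrays and 30 without genes below the median signal.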

Other observations

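The following values were chosen after they were seen. The mean level of the interferon response list had the same order by replicate number in both groups: 9.15, 9.04, 8.73, 8.70, 8.57 and 8.51 on BMV replicates 1, 5, 6, 2, 4 and 3, and 6.76, 6.73, 6.69, 6.63, 6.61 and 6.59 on BT replicates of those numbers. The labels do not say that a number marks 1 rat. Arc was at 7.96, 7.67, 7.29, 7.72, 7.02 and 7.08 on BMV replicates 1 to 6 and at 10.68, 10.43, 9.73, 9.86, 9.04 and 8.93 on BT replicates 1 to 6.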
